A study of Mus musculus with 8 samples.

Results

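The genes of the DNA replication machinery were described in 4 mouse cell lines. The set held 39 genes, chosen by name for their role in copying DNA, of 55487 genes in the count table. All 39 were found in the table and passed the filter on low counts. By role, 9 license replication origins, 6 activate the helicase, 5 belong to the sliding clamp and its loader, 4 to the replicative polymerases and 2 to the maturation of Okazaki fragments. A further 6 supply nucleotides or remove uracil, 4 act in chromatin assembly and inheritance, and 3 control entry into S phase.

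The lines were grown out of lung squamous cell carcinoma (LUSC) of genetically engineered mice, and bulk RNA-seq was made from 2 libraries of each. The labels set PL beside PLA, and the series is about loss of ACKR3, an atypical chemokine receptor. Below, the name PLA lines covers PLA and PLA4, and the name PL lines covers PL1 and PL12. The sources used here give no meaning of the letters, no alleles, no promoter that drives a recombinase, no treatment, and no word on whether a line is 1 clone. The labels do not say whether replicate libraries are separate cultures. The p-values below therefore measure the spread between libraries, which may be technical.

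As a check of the names, Ackr3 was between 0.0254 and 0.387 CPM in the 4 libraries of the PLA lines, against 25.3 to 86.3 CPM in the PL libraries. CPM are counts relative to depth, scaled between libraries by TMM factors. Libraries held 48857960 to 142458281 counts, and 12016 to 12507 genes reached 1 CPM. All 11 markers of squamous and epithelial cells were above 1 CPM in all 8 libraries. Of 6 markers of endothelial cells, at most 1 reached 1 CPM in any library.

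Before S phase, the origin recognition complex, Cdc6 and Cdt1 load the ring of Mcm2 to Mcm7 onto DNA, which licenses the origin. In S phase the ring becomes an active helicase with Cdc45 and the GINS complex, primase and the polymerases copy both strands on the PCNA clamp, and nucleases and a ligase join the fragments. Many of these genes are targets of E2F factors, so their RNA is abundant in cycling cells and scarce in resting ones.

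The replication genes were lowest in PLA, intermediate in PLA4 and highest in the PL lines. The mean log2(CPM + 1) of the 39 genes was 3.98 in both PLA libraries, 4.97 and 5.42 in PLA4 replicates 1 and 2, 5.83 and 5.51 in PL1, and 5.94 and 5.96 in PL12. No library of a PLA line reached the level of any PL library on this scale. In bulk RNA, fewer cells in cycle and less RNA per cell cannot be told apart. Line means ran in the order PLA, PLA4, then both PL lines for 37 of the 39 genes, with PL12 above PL1 for 27 of these and PL1 above PL12 for 10. The exceptions were Gins3, where PL12 lay below PLA4, and Slbp, where PLA lay above PLA4 and PL1.

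**Figure D1:**
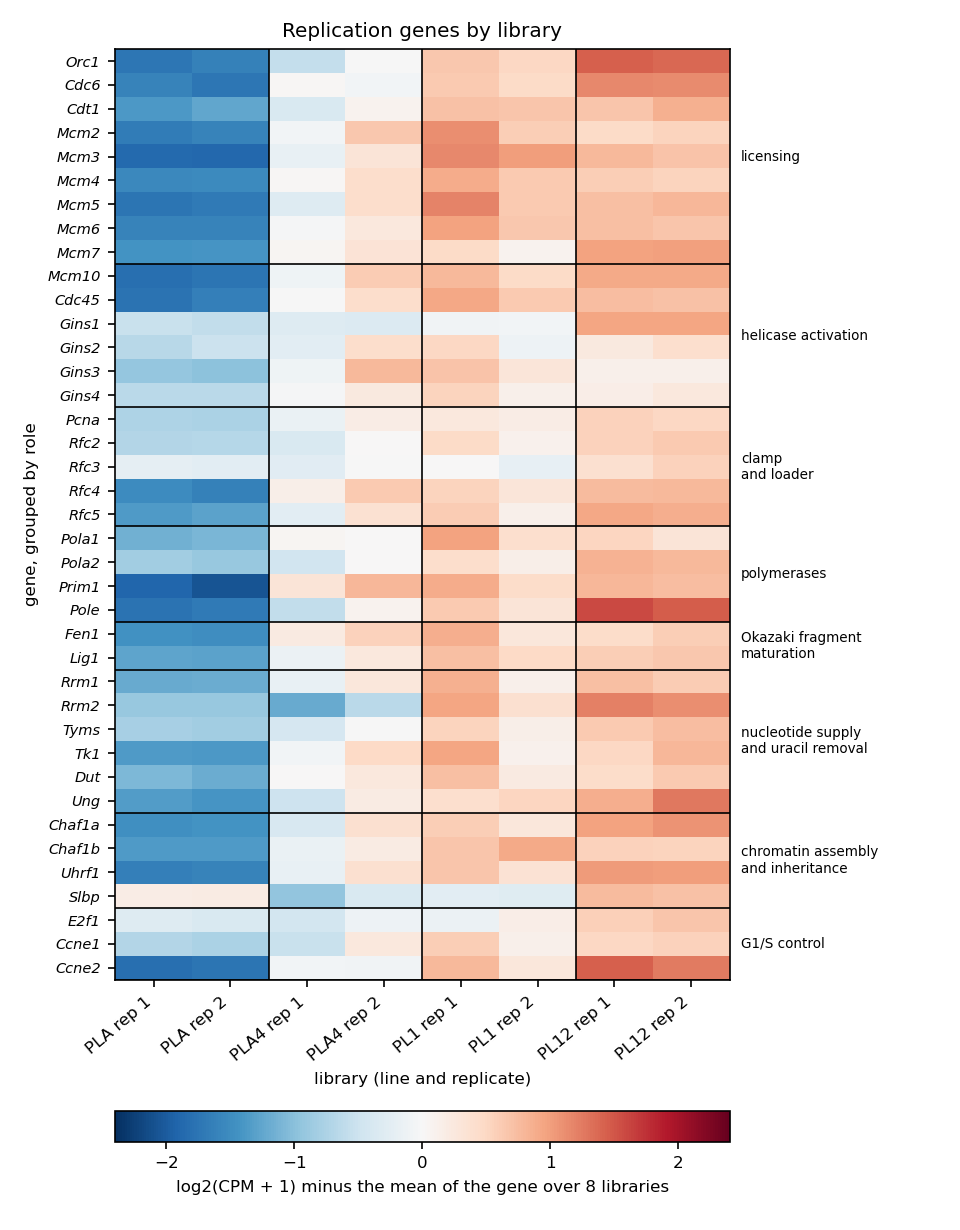
Level of each of the 39 replication genes in each library, as log2(CPM + 1) minus the mean of that gene over the 8 libraries (blue below, red above). Rows are genes grouped by role and columns are libraries grouped by line, and the 2 PLA columns are blue for every gene except Slbp.

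The study set the families side by side to see what goes with loss of Ackr3. A gene was called between them where edgeR's quasi-likelihood test gave an adjusted p under 0.05, with 1 sign, for both PLA lines against both PL lines, which makes 4 comparisons. Cdc6, Cdt1, Mcm3, Mcm6, Rrm2 and Chaf1b fell in all 4, 6 of 39 replication genes (15.4%), and 0 rose. Of all 18648 genes tested, 0.767% were called lower in this way and 1.23% higher. At an unadjusted p under 0.05 in each comparison the same edgeR fit gave 14 replication genes that were lower (2.87% of all genes) and 0 that were higher. DESeq2 called 10 lower (2.06% of all genes) and 0 higher. No call was left without any one library of PLA or of PL12, and the share of all genes called lower fell as well. Fewer replication genes were called without PLA4 replicate 1 or any one library of PL1, and more without PLA4 replicate 2. In each of these fits the share of all genes called lower rose.

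With the line as the replicate, counts were summed over both libraries of a line and 2 lines were set against 2. All 39 genes had a negative log2 fold change there, with a median of -1.06 and a range from -2.16 (Orc1) to -0.42 (Rfc3), while the median over all genes tested was 0.04. In that test edgeR called 0 of 39 replication genes and 0% of all genes (lowest adjusted p = 0.852). Rrm2 and Tyms had an unadjusted p under 0.05 in edgeR, 2 of 39 genes, as had 4.60% of all genes. DESeq2 called 1 of the 39 on summed profiles, and the share of all genes it called there was not computed. An exact permutation test over 2 lines against 2 cannot give a two-sided p under 0.333. The median was -0.56 without the line PLA and -2.08 without the line PLA4.

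The 4 single comparisons show how unevenly the lines carried this difference. In PLA against PL12, 38 of 39 genes were called lower (17.3% of all genes, edgeR) and 0 higher (20.4%), with a median log2 fold change of -2.10. In PLA against PL1, 35 were called lower (13.0% of all genes) and 0 higher (14.4%), with a median of -1.96. Without any one library of PLA fewer of the 39 genes were called lower, and the share of all genes called lower fell as well. In PLA4 against PL12, 23 were called lower (16.8% of all genes) and 0 higher (19.2%), with a median of -0.64. That count fell without any one library of PLA or PL12 and without PLA4 replicate 1, and so did the share of all genes called lower.

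In PLA4 against PL1, 6 genes were called lower (3.93% of all genes, edgeR) and 0 higher (4.61%). The 6 were the same 6 as in all 4 comparisons, and the median was -0.47. The joint count thus equals the count of this comparison. The 6 calls were lost without any one library of PLA or PL12, and more genes were called without PLA4 replicate 2. Without PLA4 replicate 1 or PL1 replicate 1 fewer replication genes were called, while the share of all genes called lower rose. The 4 comparisons share libraries with each other, so their counts are not independent. Of the counts of 0 higher in these 4 comparisons, all were also 0 at an unadjusted p under 0.05 in edgeR, except for 1 gene, Slbp, in PLA against PL1, and all were 0 by DESeq2.

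**Figure D2:**
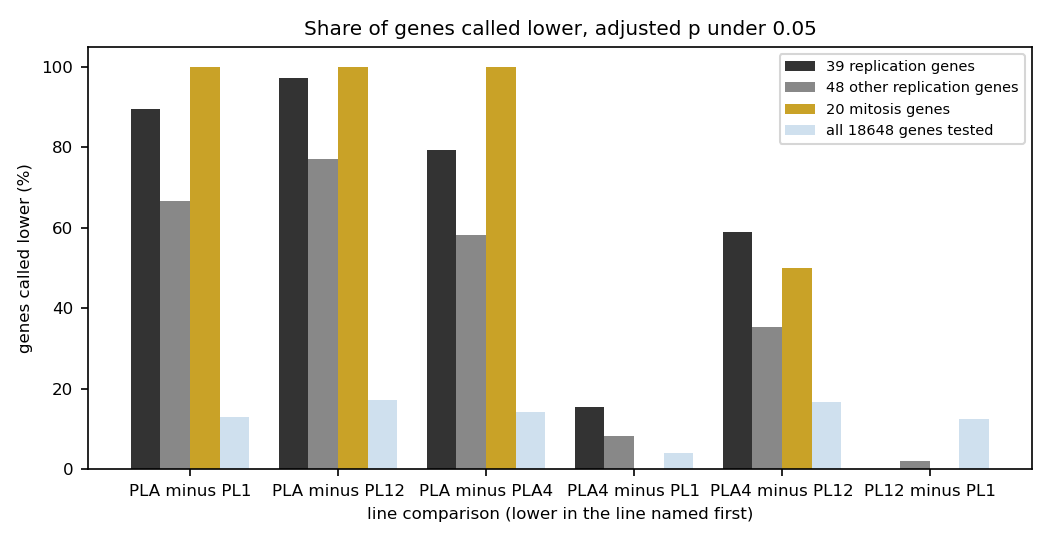
Share of genes called lower in the line named first, in percent (y axis), for the 6 comparisons between lines (x axis) in edgeR at an adjusted p under 0.05. Bars stand for the 39 replication genes, 48 other replication genes, 20 mitosis genes and all 18648 genes, and the replication genes reach 89.7% in PLA against PL1 but 15.4% in PLA4 against PL1.

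The licensing genes held 4 of the 6 genes called in all 4 comparisons, and their median log2 fold change on summed profiles, -1.38, was the lowest of the 8 roles. Orc1, the ATPase subunit of the origin recognition complex (chromosome 4, 108579423 to 108614833, GRCm38), was at 0.999 and 1.16 CPM in PLA, 3.49 and 5.67 CPM in PLA4, 9.46 and 8.46 CPM in PL1 and 17.0 and 16.3 CPM in PL12. All libraries of the PLA lines lay below all libraries of the PL lines, and PL12 held the most. Its log2 fold change on summed profiles was -2.16 ± 0.91 (SE), and the largest adjusted p over the 4 line comparisons was 0.0759 (edgeR).

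Cdc6, the ATPase that recruits the helicase with Cdt1 (chromosome 11, 98907801 to 98923940), was at 4.81 and 4.26 CPM in PLA, 16.8 and 15.8 CPM in PLA4, 26.2 and 23.2 CPM in PL1 and 38.1 and 37.8 CPM in PL12. The 4 lines did not overlap in their libraries. PLA4 lay 0.60 ± 0.14 (SE) below PL1 on the log2 scale, the smallest of its 4 differences (adjusted p = 0.0479, edgeR), and the call was kept in 5 of 16 alternative settings. Cdt1, which carries the helicase to the origin (chromosome 8, 122568015 to 122573554), was at 6.16 and 6.82 CPM in PLA, 13.4 and 18.7 CPM in PLA4, 29.3 and 28.6 CPM in PL1 and 28.3 and 32.7 CPM in PL12. Here PL1 and PL12 overlapped and both PLA lines lay below them, with a largest adjusted p of 0.0464 (edgeR).

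Mcm3 and Mcm6 are subunits of the hexameric helicase. Mcm3 (chromosome 1, 20802968 to 20820312) was at 21.7 and 21.6 CPM in PLA, 72.2 and 101.5 CPM in PLA4, 183 and 164 CPM in PL1 and 142 and 131 CPM in PL12. The log2 fold change was -3.004 ± 0.19 in PLA against PL1 and -0.999 ± 0.18 in PLA4 against PL1 (SE, adjusted p = 0.000848 and 0.0273, edgeR). Mcm6 (chromosome 1, 128331590 to 128359664) was at 33.1 and 33.2 CPM in PLA, 101.3 and 123 CPM in PLA4, 201 and 161 CPM in PL1 and 171 and 165 CPM in PL12. Both genes had all libraries of the PLA lines below those of the PL lines, and the libraries of PLA4 held more than 3 times the level of PLA in each case.

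At the other end of this role, Mcm2 stood at 24.3 and 25.6 CPM in PLA, 76.7 and 126 CPM in PLA4, 175 and 121 CPM in PL1 and 110.3 and 116 CPM in PL12. PLA4 replicate 2 lay above 3 of the 4 PL libraries. The fall of Mcm2 from PLA4 to PLA was -2.02 ± 0.28 (SE, adjusted p = 0.0046, edgeR), while its difference between PLA4 and PL12 was -0.16 ± 0.27 (adjusted p = 0.662, edgeR).

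E2F factors are known to act close upstream of many licensing and polymerase genes. The upstream sequences of Mcm6, Mcm5, Cdc6 and Pola1 are given here from RefSeq (GRCm38.p6) because they hold E2F letters, and that of Rrm2 because it was the gene called in the most settings and its window holds none. Each runs 5′ to 3′ on the strand of the gene, ends before the RefSeq start, and leaves out GENCODE exons. Capitals mark matches to TTTCGCGC, TTTGGCGC, TTTCCCGC or TTTGCCGC on either strand. Positions are chr1:128359706-128359955 (minus strand) for Mcm6, chr8:75109259-75109508 (plus) for Mcm5, chr11:98907982-98908150 (plus) for Cdc6, chrX:93632156-93632405 (minus) for Pola1 and chr12:24708004-24708240 (plus) for Rrm2.
Mcm6: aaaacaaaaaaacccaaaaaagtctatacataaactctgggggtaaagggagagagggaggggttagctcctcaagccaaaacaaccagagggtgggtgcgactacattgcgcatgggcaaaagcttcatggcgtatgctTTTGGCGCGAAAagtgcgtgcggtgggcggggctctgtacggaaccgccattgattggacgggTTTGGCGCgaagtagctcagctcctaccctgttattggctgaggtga
Mcm5: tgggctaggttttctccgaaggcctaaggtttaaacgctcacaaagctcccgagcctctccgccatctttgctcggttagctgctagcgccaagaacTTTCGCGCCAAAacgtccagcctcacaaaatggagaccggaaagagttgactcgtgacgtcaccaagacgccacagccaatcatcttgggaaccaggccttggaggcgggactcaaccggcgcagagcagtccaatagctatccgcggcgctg
Cdc6: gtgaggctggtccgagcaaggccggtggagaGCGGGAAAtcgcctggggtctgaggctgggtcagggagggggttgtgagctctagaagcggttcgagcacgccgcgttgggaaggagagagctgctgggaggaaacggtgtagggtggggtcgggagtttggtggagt
Pola1: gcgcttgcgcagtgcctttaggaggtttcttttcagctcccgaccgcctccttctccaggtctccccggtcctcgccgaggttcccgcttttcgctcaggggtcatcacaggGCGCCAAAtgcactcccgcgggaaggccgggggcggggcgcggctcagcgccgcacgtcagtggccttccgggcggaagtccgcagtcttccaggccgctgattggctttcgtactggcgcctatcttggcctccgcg
Rrm2: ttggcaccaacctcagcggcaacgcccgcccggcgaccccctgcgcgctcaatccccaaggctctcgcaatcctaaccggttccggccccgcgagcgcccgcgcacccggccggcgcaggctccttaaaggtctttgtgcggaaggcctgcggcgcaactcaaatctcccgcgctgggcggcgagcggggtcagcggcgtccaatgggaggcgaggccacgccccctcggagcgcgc
The RefSeq start of Cdc6 lies 350 bases inside the GENCODE span given above, so its stretch is upstream of the RefSeq start only. Mcm6 held 3 matches, 110, 106 and 47 bases before its start, of which the first and second overlap on opposite strands. Mcm5 held 2, at 153 and 149 bases, which also overlap, and Cdc6 and Pola1 held 1 each, both at 138 bases.

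A RefSeq promoter entry was found for 32 of the 39 genes. In the 250 bases before the start, an E2F match was present in 8 of the 32 (25%), against 520 of 27025 promoters (1.92%). The other 4 were Gins3, Mcm7, Orc1 and Rfc3. The matches of these 4 and of Cdc6 lie downstream of the GENCODE start of the gene. RefSeq starts of Mcm7, E2f1, Cdc6 and Dut lie 539, 466, 350 and 325 bases inside their GENCODE spans. Their windows thus lie wholly within the gene, and the part of this in the shares was not tested. Of the 6 genes called in all 4 comparisons, 2 held a match (33.3%). The CCAAT box, searched as CCAAT on both strands, was present in 18 of 32 (56.2%) against 34.5% of all promoters, and the CHR element, searched as TTTGAA and TTCGAA, in 6 (18.8%) against 17.5%. Of 17 promoters of mitosis genes, 5.88% held an E2F match, 88.2% CCAAT and 47.1% the CHR element. The windows of the replication genes had a median GC content of 58.8% against 52% for all promoters, and the part of GC content in these shares was not tested.

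Between genes, levels were compared as TPM, which accounts for transcript length. Mcm2 to Mcm7 form 1 ring with 1 copy of each, and their TPM lay within 1.34-fold of each other in PL1 replicate 1 and within 2.62-fold in PL12 replicate 1, the smallest and largest spreads of the 8 libraries. Mcm7 was the highest subunit in the PLA, PLA4 and PL12 libraries, at 27.3 and 28.5 TPM in PLA, 70.4 and 82.2 in PLA4, and 127 and 117 in PL12. PL1 held 79.9 and 70.7 TPM of Mcm7, and there Mcm6 was highest in replicate 1 (104.6 TPM) and Mcm3 in replicate 2 (91.2 TPM). Mcm7 was also the 1 subunit called between the PL lines, higher in PL12 by 0.70 ± 0.17 on the log2 scale (SE, adjusted p = 0.0285, edgeR). Its exons overlap those of Cops6 and Ap4m1 on the other strand, which held 80.2% and 23.9% as many counts, and the library kits do not mark strand.

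The other 5 subunits followed PLA, PLA4 and the PL lines in that order of line means. Mcm2 stood at 11.4 and 12.1 TPM in PLA and at 79.2 and 58.9 TPM in PL1, and Mcm5 at 11.2 and 11.8 TPM in PLA and 88.9 and 65.1 TPM in PL1. Mcm3 stood at 11.4 TPM in both PLA libraries and at 92.8 and 91.2 TPM in PL1. Mcm4 stood at 14.5 and 15.01 TPM in PLA and 77.8 and 70.2 TPM in PL1, and Mcm6 at 17.7 and 17.96 TPM and 104.6 and 89.4 TPM. In PLA4 these 5 ran from 31.0 (Mcm5) to 53.1 TPM (Mcm6) in replicate 1 and from 53.6 (Mcm5) to 65.6 TPM (Mcm6) in replicate 2. In PL12 they ran from 48.4 (Mcm2) to 84.9 TPM (Mcm6) over both libraries.

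**Figure D3:**
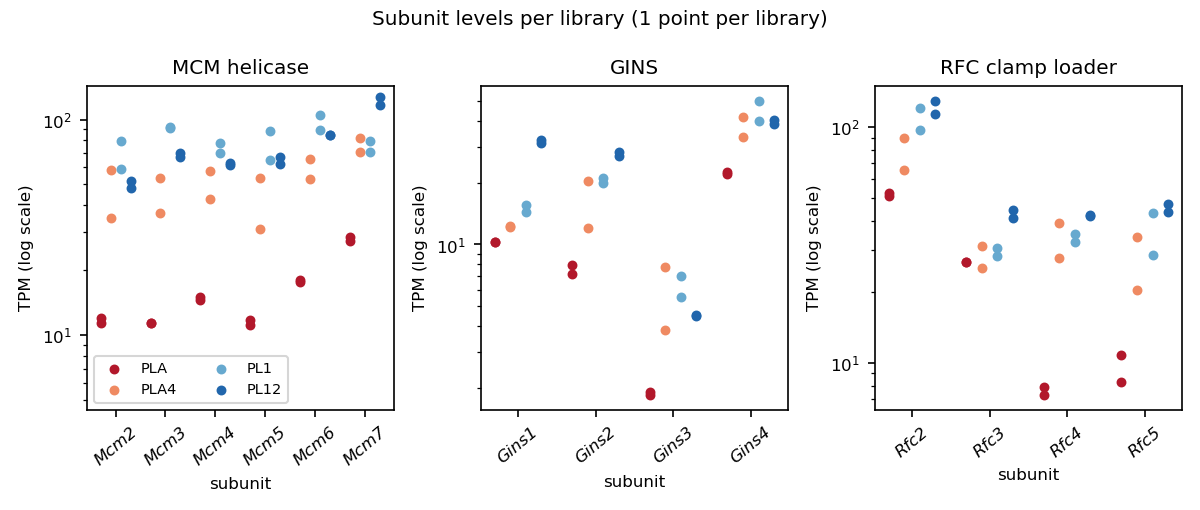
TPM on a log axis (y) of the subunits of the MCM helicase, the GINS complex and the RFC clamp loader (x), with 1 point per library and 1 colour per line. The PLA points are lowest for all 6 MCM subunits, while for Rfc3 the PLA points lie among those of PLA4.

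Genes of helicase activation split into those that fell steeply in PLA and those that did not. Cdc45, which holds the ring to its GINS partner, stood at 4.04 and 4.51 CPM in PLA, 15.9 and 22.0 CPM in PLA4, 31.5 and 25.4 CPM in PL1 and 27.4 and 26.9 CPM in PL12. Its libraries in the PLA lines all lay below those in the PL lines, and PLA lay 2.15 ± 0.21 below PLA4 on the log2 scale (SE, adjusted p = 0.00184, edgeR). Exons of Cdc45 overlap those of Ufd1 on the other strand, which held 317% of its counts. Mcm10, which helps start unwinding, was 2.33 ± 0.27 below PLA4 in PLA (adjusted p = 0.00286, edgeR) and 0.34 ± 0.25 below PL1 in PLA4 (adjusted p = 0.419, edgeR).

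The 4 GINS subunits differed from each other. Gins2 stood at 17.8 and 19.7 CPM in PLA, 23.9 and 38.9 CPM in PLA4, 40.8 and 26.3 CPM in PL1 and 34.1 and 38.2 CPM in PL12. PLA4 and the PL lines overlapped, and the difference between PLA and PLA4 missed the threshold (-0.74 ± 0.29, adjusted p = 0.0999, edgeR). Exons of Gins2 overlap those of Gse1 on the other strand, which held 95.3% as many counts, so its values are uncertain. Gins1 stood at 6.29 and 5.99 CPM in PLA, 7.48 and 7.33 CPM in PLA4, 8.89 and 9.04 CPM in PL1 and 19.3 and 19.4 CPM in PL12. It set PL12 apart from the other 3 lines, rising by 1.11 ± 0.15 from PL1 to PL12 (adjusted p = 0.00548, edgeR), while PLA and PLA4 differed by -0.27 ± 0.15 (adjusted p = 0.217, edgeR).

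Gins3 was one of the 2 genes whose sign was not the same in the 4 comparisons. It stood at 2.998 and 2.87 CPM in PLA, 6.06 and 12.1 CPM in PLA4, 11.3 and 8.37 CPM in PL1 and 7.26 and 7.30 CPM in PL12. The PLA4 libraries lay on both sides of PL12, and the log2 fold change of PLA4 against PL12 was 0.32 ± 0.35 (SE, adjusted p = 0.506, edgeR). In TPM, Gins3 was the lowest and Gins4 the highest of the 4 subunits in all 8 libraries. Gins3 ran from 1.84 to 7.74 TPM and Gins4 from 22.1 to 50.2 TPM, a spread within the complex of 5.41-fold (PLA4 replicate 2) to 12.2-fold (PLA replicate 2). Gins1 held 10.3 TPM in both PLA libraries and 31.1 and 32.3 TPM in PL12, and Gins2 held 7.20 and 7.95 TPM in PLA and 28.4 and 27.0 TPM in PL12.

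For the clamp and its loader, the median log2 fold change on summed profiles was -0.86, with a range from -1.12 (Rfc5) to -0.42 (Rfc3). Pcna, the clamp that tethers polymerases to DNA and the most abundant of the 39 genes in TPM, stood at 122 and 121 TPM in PLA, 177 and 229 TPM in PLA4, 233 and 237 TPM in PL1 and 289 and 277 TPM in PL12. PLA was 0.77 ± 0.14 below PLA4 on the log2 scale (SE, adjusted p = 0.0113, edgeR), and PLA4 was 0.19 ± 0.14 below PL1 (adjusted p = 0.419, edgeR). Rfc2 to Rfc5 with Rfc1 load the clamp. Rfc3 stood at 20.9 and 20.2 CPM in PLA, 19.98 and 24.3 CPM in PLA4, 24.7 and 21.1 CPM in PL1 and 32.2 and 36.2 CPM in PL12. PLA4 overlapped both PLA and PL1, PLA lay below PL1, and PL12 lay above all 3. The difference of PLA and PLA4 was -0.11 ± 0.16 (adjusted p = 0.632, edgeR), and that of PLA and PL12 was -0.73 ± 0.16 (adjusted p = 0.0134, edgeR).

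Rfc5 stood at 12.8 and 13.4 CPM in PLA, 28.4 and 44.4 CPM in PLA4, 52.7 and 37.5 CPM in PL1 and 66.1 and 63.4 CPM in PL12. PLA4 replicate 2 lay between the PL1 libraries, and PLA lay 1.48 ± 0.25 below PLA4 (SE, adjusted p = 0.00883, edgeR). In TPM, Rfc2 was the highest of the 4 subunits in every library, with 52.3 and 51.1 TPM in PLA, 65.2 and 89.5 TPM in PLA4, 119.95 and 97.1 TPM in PL1 and 113 and 129 TPM in PL12. The lowest subunit in PLA was Rfc4, at 7.85 and 7.27 TPM, and the spread within the complex was 6.66-fold and 7.02-fold there against 2.76-fold to 3.91-fold in the other 6 libraries. Rfc4 stood at 27.8 and 39.2 TPM in PLA4, 35.0 and 32.5 TPM in PL1 and 42.3 and 41.9 TPM in PL12. Rfc3 stood at 26.7 TPM in both PLA libraries. Exons of Rfc4 overlap those of Eif4a2 on the other strand, which held 2200% of its counts, and exons of Rfc5 overlap those of Wsb2, which held 307%, so the values of these genes are uncertain.

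Among the polymerases, Pole, the catalytic subunit that copies the leading strand (chromosome 5, 110286306 to 110337474), differed most between the families. It stood at 7.86 and 8.24 CPM in PLA, 19.1 and 30.9 CPM in PLA4, 45.8 and 36.2 CPM in PL1 and 89.7 and 81.5 CPM in PL12. No libraries of different lines overlapped, and PL12 was 1.06 ± 0.24 above PL1 (SE, adjusted p = 0.0253, edgeR). Prim1, the catalytic subunit of primase (chromosome 10, 128015168 to 128030037), was at 7.57 and 6.60 CPM in PLA, 38.7 and 54.8 CPM in PLA4, 58.5 and 42.4 CPM in PL1 and 55.1 and 52.4 CPM in PL12. Only PLA stood apart, and its difference from PLA4, -2.72 ± 0.24, was the largest of the 39 genes (adjusted p = 0.00135, edgeR). PLA4 and PL1 differed by -0.11 ± 0.22 for Prim1 (adjusted p = 0.788, edgeR).

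Pola1 and Pola2 are the large and the accessory subunit of polymerase alpha, which works with primase. Pola1 was called lower in PLA than in PLA4 by 1.18 ± 0.20 and Pola2 by 0.69 ± 0.19 on the log2 scale (SE, adjusted p = 0.00821 and 0.0383, edgeR). For both genes all libraries of the PLA lines lay below those of the PL lines. Over all 39 genes this held for 19 (7.18% of all genes tested), and for 0 the libraries were apart the other way (8.56%).

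Fen1 and Lig1 cut and seal Okazaki fragments. Fen1 stood at 20.8 and 20.1 CPM in PLA, 68.4 and 86.3 CPM in PLA4, 107 and 71.1 CPM in PL1 and 79.5 and 88.6 CPM in PL12. PLA4 overlapped both PL lines. Lig1 stood at 22.3 and 22.2 CPM in PLA, 50.2 and 65.6 CPM in PLA4, 92.2 and 77.3 CPM in PL1 and 83.2 and 86.5 CPM in PL12, with PLA4 below every PL library. Both fell from PLA4 to PLA, Fen1 by 1.92 ± 0.22 and Lig1 by 1.38 ± 0.16 (SE, adjusted p = 0.00299 and 0.0031, edgeR). Exons of Fen1 overlap those of Tmem258 on the other strand, which held as many counts (100% of those of Fen1).

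Among the nucleotide supply genes, Rrm2 was low in both PLA lines by about the same amount. Rrm2, the regulated subunit of ribonucleotide reductase (chromosome 12, 24708241 to 24714146), was at 51.3 and 51.2 CPM in PLA, 41.4 and 61.7 CPM in PLA4, 189 and 127 CPM in PL1 and 226 and 212 CPM in PL12. The PLA libraries lay between those of PLA4, and all 4 lay below the PL libraries. The mean over lines was 3.66-fold lower in the PLA family, 51.4 ± 0.224 CPM, than in the PL family, 188 ± 43.1 CPM (SD over lines, n = 2). Rrm2 was -1.62 ± 0.25 in PLA against PL1, -1.61 ± 0.25 in PLA4 against PL1, and -2.09 ± 0.26 in both PLA and PLA4 against PL12 (log2, SE, largest adjusted p = 0.0206, edgeR). PLA and PLA4 differed by -0.01 ± 0.25 (adjusted p = 0.986, edgeR). Of the 39 genes it was called in the most alternative settings, 11 of 16.

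Rrm1, the large subunit of the same enzyme, followed the other genes. It stood at 101.5 and 102 CPM in PLA, 209 and 284 CPM in PLA4, 428 and 257 CPM in PL1 and 390.4 and 361 CPM in PL12. PLA4 replicate 2 lay above PL1 replicate 2, and PLA lay 1.27 ± 0.27 below PLA4 on the log2 scale (SE, adjusted p = 0.0168, edgeR). In TPM the ratio of Rrm2 to Rrm1 was lowest in PLA4, 0.329, against 0.744 in PL1, 0.792 in PLA and 0.904 in PL12. The PLA4 ratio came from 38.5 TPM of Rrm2 and 117 TPM of Rrm1. This ratio is a description of line means, and its difference between lines was not tested.

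Tyms and Tk1 make thymidine nucleotides, and Dut and Ung keep uracil out of DNA. Dut stood at 18.02 and 16.7 CPM in PLA, 39.5 and 46.7 CPM in PLA4, 65.1 and 45.7 CPM in PL1 and 54.0 and 61.4 CPM in PL12, with PLA4 replicate 2 just above PL1 replicate 2. All 4 genes fell from PLA4 to PLA, Tk1 by 1.66 ± 0.32, Ung by 1.51 ± 0.29, Dut by 1.31 ± 0.20 and Tyms by 0.64 ± 0.19 on the log2 scale (SE, adjusted p = 0.00599 for Dut to 0.0480 for Tyms, edgeR).

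**Figure D4:**
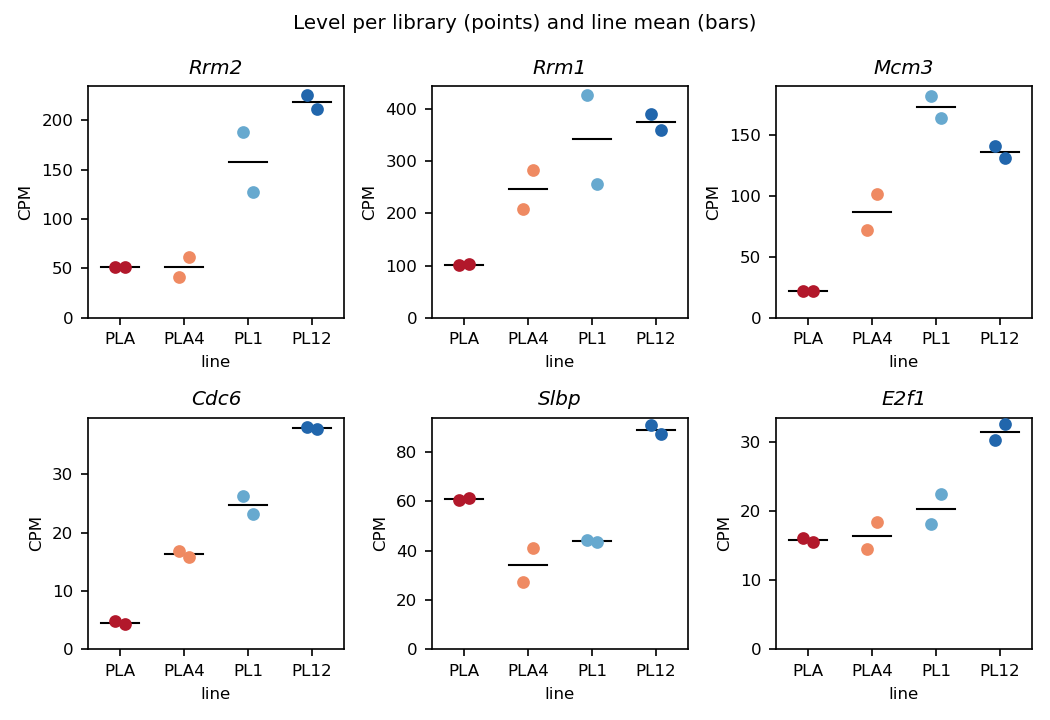
CPM (y axis, from 0) of 6 replication genes in the libraries of each line (x axis), with 1 point per library and a bar at the mean of the line. The PLA points of Rrm2 lie between those of PLA4, Rrm1, Mcm3 and Cdc6 rise from PLA to PLA4 and on to the PL lines, and Slbp is lowest in PLA4.

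Chromatin genes included the other gene with a mixed sign. Chaf1b, a subunit of the histone chaperone CAF-1 (chromosome 16, 93883901 to 93906115), was at 10.02 and 9.98 CPM in PLA, 24.2 and 31.2 CPM in PLA4, 43.5 and 52.0 CPM in PL1 and 40.4 and 39.5 CPM in PL12. Both PLA lines lay below both PL lines, and the largest adjusted p over the 4 comparisons was 0.0449 (edgeR). Chaf1a, its largest subunit, stood at 12.9 and 13.4 CPM in PLA, 28.6 and 49.8 CPM in PLA4, 57.1 and 45.7 CPM in PL1 and 75.1 and 81.3 CPM in PL12. PLA4 replicate 2 lay between the PL1 libraries for Chaf1a, and its largest adjusted p was 0.366 (edgeR). Exons of Chaf1a overlap those of Ubxn6 on the other strand, which held 85.6% as many counts, so its values are uncertain. Uhrf1, which carries DNA methylation over to the new strand, fell by 1.80 ± 0.21 from PLA4 to PLA (SE, adjusted p = 0.00316, edgeR).

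Slbp, which binds the stem-loop of replication-dependent histone mRNAs (chromosome 5, 33634952 to 33652574), was at 60.6 and 61.3 CPM in PLA, 27.1 and 41.0 CPM in PLA4, 44.3 and 43.5 CPM in PL1 and 90.8 and 87.3 CPM in PL12. PLA lay above PLA4 and PL1 and below PL12, with no overlap. It was the 1 replication gene that rose from PLA4 to PLA, by 0.84 ± 0.19 (SE, adjusted p = 0.0221, edgeR), and its difference between PLA and PL1 was 0.47 ± 0.19 (adjusted p = 0.114, edgeR). PL12 was 1.02 ± 0.19 above PL1 (adjusted p = 0.015, edgeR).

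Of the genes that control entry into S phase, E2f1, the activator E2F, stood at 16.1 and 15.5 CPM in PLA, 14.6 and 18.4 CPM in PLA4, 18.2 and 22.5 CPM in PL1 and 30.4 and 32.7 CPM in PL12. PLA lay between the PLA4 libraries, PLA4 overlapped PL1, and PL12 was highest. PLA and PLA4 differed by -0.06 ± 0.17 (SE, adjusted p = 0.824, edgeR). Ccne2, 1 of the E cyclins, stood at 3.59 and 3.73 CPM in PLA, 14.3 and 14.2 CPM in PLA4, 26.4 and 18.3 CPM in PL1 and 42.3 and 37.0 CPM in PL12. The libraries of the 4 lines did not overlap, and Ccne2 fell by 1.96 ± 0.20 from PLA4 to PLA (adjusted p = 0.0022, edgeR). Its exons overlap those of Ints8 on the other strand, which held 212% of its counts. For Ccne1, the other E cyclin, that difference was -0.68 ± 0.29 (adjusted p = 0.126, edgeR). The TPM ratio of Ccne2 to Ccne1 went from 0.236 in PLA through 0.619 in PLA4 and 0.682 in PL1 to 0.997 in PL12.

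Within the PLA family, 31 of the 39 genes were called lower in PLA than in PLA4 (79.5%), and Slbp was called higher. Over all genes 14.1% were lower and 14.9% higher in this comparison (edgeR). The median log2 fold change was -1.51, and the called falls ran from -2.72 (Prim1) to -0.64 (Tyms). Gins1, Gins2, Rfc2, Rfc3, Rrm2, E2f1 and Ccne1 missed the threshold. The same 31 genes were called lower in PLA than in each of the 3 other lines, which 5.51% of all genes were, and 0 were higher than in each (5.08% of all genes). Both PLA libraries lay below all 6 other libraries for 35 genes (16.5% of all genes) and above them for 0 (19.8%). Without any one library of PLA, fewer of the 39 genes were called lower in PLA than in PLA4, or than in each other line. The share of all genes called lower fell as well.

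**Figure D5:**
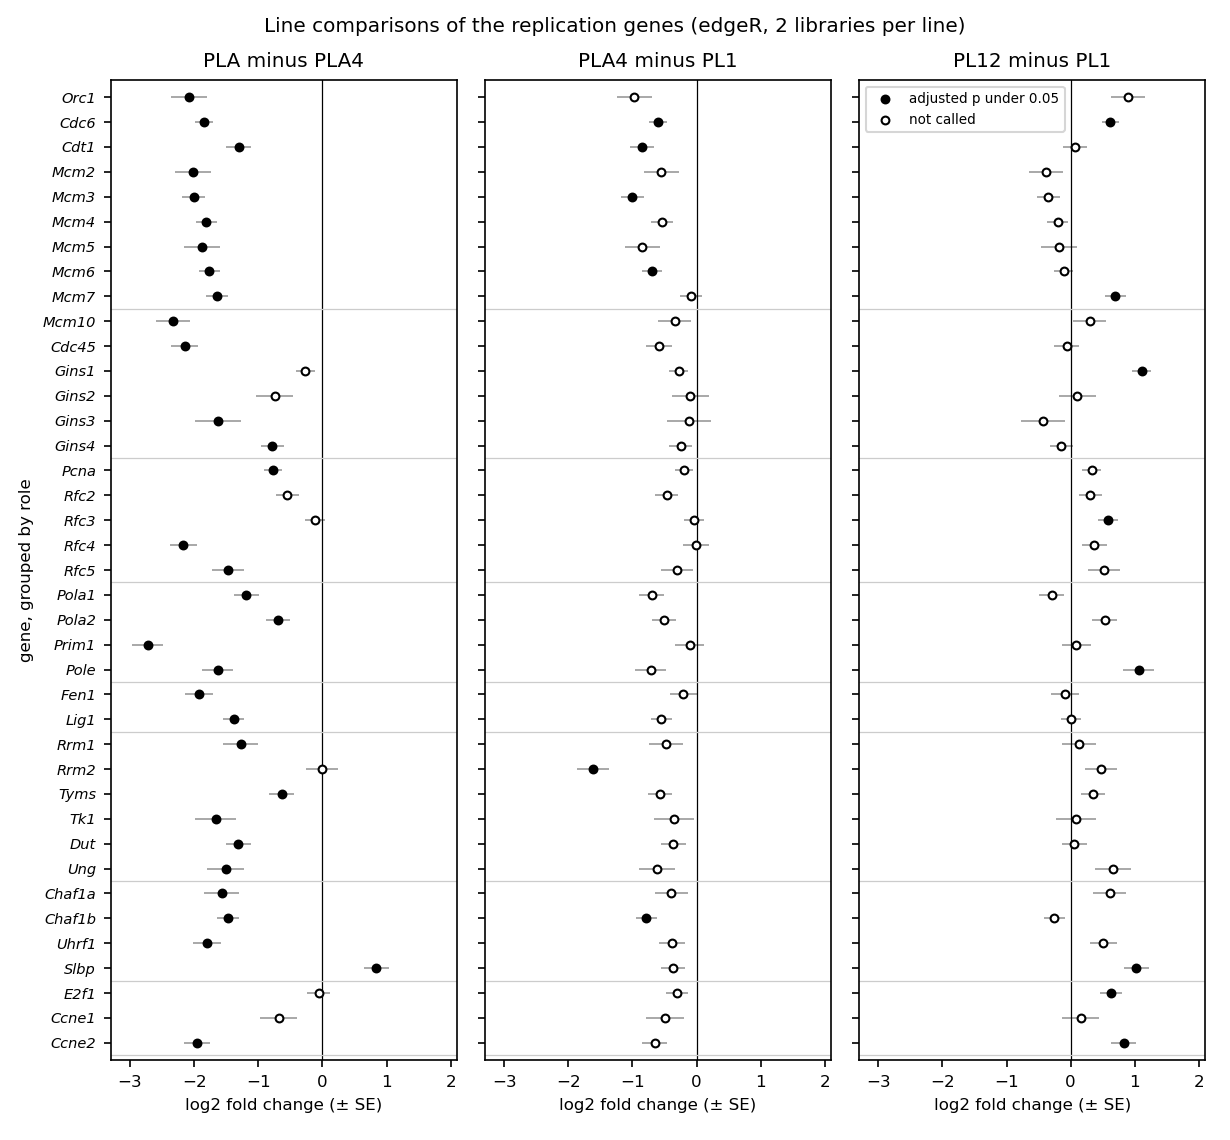
Log2 fold change with its SE (x axis) of each of the 39 replication genes (y axis, grouped by role) in 3 line comparisons, from edgeR with 2 libraries per line. Filled points passed an adjusted p of 0.05, which 31 genes did on the negative side in PLA minus PLA4, 6 in PLA4 minus PL1, and 8 on the positive side in PL12 minus PL1.

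Within the PL family, 8 of the 39 genes were higher in PL12 than in PL1 (11.2% of all genes, edgeR), namely Cdc6, Mcm7, Gins1, Rfc3, Pole, Slbp, E2f1 and Ccne2, and 0 were lower (12.5% of all genes). No gene was lower at an unadjusted p under 0.05 in edgeR or by DESeq2 either, and DESeq2 called 10 higher. The median was 0.30 on the log2 scale. The count of 8 fell without a library of PLA or PL1, rose without a library of PLA4, and no call was left without a library of PL12. The share of all genes called moved the same way in these fits, which leave 1 library in a line. Genes called lower in PL12 than in PL1 appeared without PLA4 replicate 1 and without PL1 replicate 2. They also appeared in the fits without 1 library of PLA4 and 1 of PL1.

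The libraries of a line differed in PLA4 and PL1. The median log2 ratio of replicate 2 to replicate 1 over the 39 genes was 0.48 in PLA4 and -0.32 in PL1, against 0.00 in PLA and 0.01 in PL12. PLA4 replicate 2 was above replicate 1 for 35 genes, and PL1 replicate 1 was above replicate 2 for 35. No replication gene was over 2-fold apart in any line, while 9.49% of all genes were in PLA4 and 8.02% in PL1. PLA4 replicate 2 exceeded PL1 replicate 2 for 18 of the 39 genes, and PLA4 replicate 1 did so for 0. With PL1 replicate 1 and PLA4 replicate 2 left out, 27 genes were called in all 4 comparisons, and the share of all genes rose as well, to 6.01% from 0.767%. With PL1 replicate 2 and PLA4 replicate 1 left out, 20 were, beside 4.70% of all genes.

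Markers of other cells moved between some of these libraries. Of 8 fibroblast markers, 5 reached 1 CPM in PL1 replicate 2 and at most 2 in any other library. Their summed TPM was 84.7 in PL1 replicate 2, 0.79 in PL1 replicate 1, 2.84 and 3.07 in PLA4, and at most 0.38 in PLA and PL12, and Col1a1 stood at 254 CPM in PL1 replicate 2 against at most 4.36 CPM elsewhere. Of 14 immune markers, 1 to 6 reached 1 CPM per library, with a summed TPM of 60.2 and 62.3 in PLA, 14.3 to 30.9 in PLA4 and PL1 and 39.4 and 41.7 in PL12. Itgam made part of this, with 51.5 and 48.1 CPM in the PLA libraries against at most 1.00 CPM elsewhere. Cd3e, Cd3g and Nkg7 were at 0. Of the 6 immune markers tested, 1 was higher (5.08% of all genes) and 1 lower (5.51%) in PLA than in each other line (edgeR). Against PL12 alone, 1 of the 6 was higher in PLA (20.4% of all genes) and 4 lower (17.3%, edgeR). Against PL1, 2 were higher (14.4%) and 2 lower (13.0%), and against PLA4, 3 were higher (14.9%) and 1 lower (14.1%). The lowest log2 fold change of PLA in this list was -8.66 against PL1, -8.42 against PL12 and -7.11 against PLA4. Of the 11 squamous and epithelial markers, 6 were higher in PLA than in PL12 (20.4% of all genes) and 7 in PLA4 than in PL12 (19.2%, edgeR). In both comparisons 0 of these markers were lower (17.3% and 16.8% of all genes). Their mean log2(CPM + 1) was 9.62 and 9.59 in PLA, 9.88 and 9.03 in PLA4 replicates 1 and 2, 9.27 and 8.77 in PL1, and 8.17 and 8.19 in PL12. PL12, where the replication genes were highest, thus held the lowest level of this list. The part of all these markers in the levels of the replication genes was not tested.

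A list of 48 other replication genes was tested in the same fit. In all 4 comparisons Orc2, Donson, Wdhd1 and Tipin were called lower, 4 of 48 (8.33%, against 0.767% of all genes). Called higher were 0 (1.23% of all genes), and 0 also at an unadjusted p under 0.05 in edgeR and by DESeq2. Tipin, a protein of the fork protection complex, stood at 9.60 and 9.67 CPM in PLA, 13.2 and 19.4 CPM in PLA4, 38.96 and 29.8 CPM in PL1 and 46.6 and 46.2 CPM in PL12. Without any one library of PLA or PL12 no call was left, and the share of all genes called lower fell. That share rose without PL1 replicate 1, where fewer of the 48 were called. It also rose without PL1 replicate 2 or PLA4 replicate 2, where more were called. In PLA against PLA4, 28 were lower (14.1% of all genes, edgeR) and 2 higher (14.9%), with a median of -0.98. The lowest was Dna2, a nuclease and helicase, at -3.27, and the highest Pold4, the small subunit of polymerase delta, at 1.27. The PLA libraries held 53.1 and 48.9 CPM of Pold4, and the 6 others 18.2 to 26.6 CPM.

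Of 20 mitosis genes, 20 were called lower in PLA than in PLA4 (14.1% of all genes, edgeR), with a median of -2.39. In all 4 comparisons 0 were called lower (0.767% of all genes) and 0 higher (1.23%, edgeR). At an unadjusted p under 0.05 in edgeR 5 of the 20 were lower (2.87% of all genes), and DESeq2 called 2 lower (2.06%). Their mean log2(CPM + 1) was lowest in PLA (3.81 and 3.79), then 5.68 and 6.37 in PLA4, 6.85 and 6.22 in PL1, and highest in PL12 (7.02 and 6.93). Mki67, the proliferation marker, stood at 43.4 and 45.8 CPM in PLA, 160.5 and 310.2 CPM in PLA4, 567 and 321 CPM in PL1 and 477 and 397 CPM in PL12. PLA4 replicate 2 lay above PL1 replicate 2 in the mitosis list, and the replicates of PLA4 and PL1 differed in the same direction as for the replication genes.

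A list of 23 other regulators of the step from G1 to S phase was tested as well. Of these, 8 were lower (5.51% of all genes) and 1 higher (5.08%) in PLA than in each of the 3 other lines (edgeR). The gene that was higher, Cdkn1a, encodes the inhibitor p21, and stood at 561 and 573 CPM in PLA, 144 and 108 CPM in PLA4, 233 and 247 CPM in PL1 and 319 and 330 CPM in PL12. PLA and PLA4 differed by 2.17 on the log2 scale for Cdkn1a, the largest rise of that list. Most of the list went the other way in this comparison, with a median of -0.54 and a lowest value of -5.88. There 11 regulators were called lower (14.1% of all genes, edgeR) and 3 higher (14.9%). No regulator was called in all 4 comparisons in edgeR (0.767% of all genes lower, 1.23% higher). At an unadjusted p under 0.05 in edgeR 3 were lower (2.87% of all genes), and 3 by DESeq2 (2.06%).

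Across the 8 libraries the replication genes moved largely as 1 group. Over 741 pairs of genes the median Pearson r of log2(CPM + 1) was 0.93, with a range from -0.24 to 0.999, and 12 pairs were below 0. These points come in pairs of libraries from 1 line, so r describes the lines more than the libraries. Uhrf1 was closest to the mean of the other genes (r = 0.996), followed by Rfc5 and Chaf1a (r = 0.992 for each), and Slbp was farthest (r = 0.136), with Rfc3, E2f1 and Gins1 next (r = 0.715, 0.724 and 0.758).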

How the data were processed

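RNA-seq of 8 libraries, 2 from each of 4 lines, was used. Per the labels' protocols, RNA came from an RNeasy kit, cDNA from a SMARTer PCR kit and libraries from a Nextera XT kit. The authors' tables hold expected counts and TPM for each gene, per the file headers. The submitters' processing notes name GRCm38, STAR, RSEM, FastQC and DESeq2 without versions. The sources used here do not give the annotation release. Of the deposited expected counts, 14.2% were not whole, and all were rounded. TPM keep no depth.

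Counts were tested over all genes with edgeR 4.0.16 (limma 3.58.1, R 4.3.3): TMM scaling, filterByExpr (minimum count 10, total 15), quasi-likelihood tests on a mean for each line (4 residual degrees of freedom), and Benjamini-Hochberg adjustment at 0.05. This left 18648 genes, and 18859 for counts summed per line. SE come from the F statistic. Depth was 48857960 to 142458281 counts, so 3 counts are 0.0208 to 0.0614 CPM, for counting error only.

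The 39 genes and all lists were chosen with earlier results of these data known, and the count of genes lower in PLA than in each other line, and the alternatives for the 4 single comparisons of a PLA with a PL line, were added after seeing the data. By rule, values per library are given for genes called in all 4 comparisons, the lowest and highest gene of each role on summed profiles, genes with mixed signs, and subunits of MCM, GINS and RFC. Genes outside the 39 are named where called in all 4 comparisons, lowest or highest in their list, or Ackr3 or Mki67. Rrm1, Pcna, Itgam and Col1a1, and Gins1 in CPM, were given after their values were seen. Coordinates are from GENCODE M21, which matched 54435 gene identifiers with version, the 39 included, and promoters from RefSeq. Alternatives used RLE scaling, other filters (none, or a mean of 5 CPM), DESeq2 1.42.0, limma on log2(TPM + 1), a replicate block, and libraries or lines left out.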

Additional observations from a re-analysis of the deposited data

Results flagged for a closer look

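Each of the 39 genes was checked for a library far from the 3 others of its family, 78 groups of 4 libraries in all. By Dixon's criterion 2 were flagged. Chance meets it in about 1 in 20 groups of independent values, and 2 of 78 is no more than that. Each group here held 2 libraries of each of 2 lines, so that rate need not hold. Ccne1 stood at 26.1 CPM in PLA4 replicate 2, against 12.5 to 14.7 CPM in the 3 other libraries of the PLA lines. Mcm2 stood at 175 CPM in PL1 replicate 1, against 110.3 to 121 CPM in the 3 other libraries of the PL lines. Both libraries belong to the lines whose replicates differed over many genes.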

How the results depend on the processing

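The same replicate number did not pair libraries (correlations of same-numbered deviations from line means -0.19 to 0.01), so lines share only a number. With the number as a replicate block, genes called lower in all 4 comparisons were 0 (other replication genes 1), in PLA4 against PL1 0, and between PL12 and PL1 5. With DESeq2 these were 10 (2.06% of all genes; other replication genes 10) in all 4 and 13 in PLA4 against PL1, and on summed profiles 1 in place of 0. Without a filter on low counts, 5 were called between PL12 and PL1. With 1 library left out, where the lone library of a line is assumed to vary like the others, the 39 genes gave 0 to 15 calls in all 4 comparisons (other replication genes 0 to 13), 14 to 34 in PLA against PLA4 and against each other line, 0 to 14 between PL12 and PL1, 22 to 36 in PLA against PL1, 0 to 16 in PLA4 against PL1 and 7 to 29 in PLA4 against PL12. Without PL1 replicate 1 and PLA4 replicate 2, 27 were called in all 4 (6.01% of all genes; other replication genes 20), 28 between PL12 and PL1, 29 in PLA4 against PL1, 38 in PLA4 against PL12, 37 in PLA against PL1, and 35 in PLA against PLA4 and against each other line. Without PL1 replicate 2 and PLA4 replicate 1 the first 4 of these were 20 (4.70% of all genes), 15, 24 and 24. The share of all genes called moved as well. Without 1 library of PL1 and 1 of PLA4, the share called lower exceeded that of the full fit in each of these comparisons. The share called higher between PL12 and PL1 did so too. With 1 library left out, the lowest count of each range came with a share below that of the full fit. The highest came with a share above it, except in PLA4 against PL12. The counts of these fits thus cannot be read apart from the background. The cause of these shifts was not tested. Of 624 values of single genes over 16 settings, 523 kept their direction and call, 47 lost a call, 54 gained one and 0 turned. Direction here was that of the mean log2 fold change of a gene over the 4 comparisons, so a turn in a single comparison was not counted. The median log2 fold change on summed profiles stayed negative in every setting where it was computed, which left out DESeq2 and the replicate block. RLE scaling moved the median of all genes by at most 0.06 in size. A count of 0 limits no gene here, since all 39 were well above the floor of 3 counts.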
